A study of Mus musculus with 12 samples.

Results

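The secretoglobins and club cell genes of mouse lung described here are Scgb1a1, Scgb3a1, Scgb3a2, Scgb1c1, Cbr2 and Aldh1a1, 6 of the 54532 genes in a deposited table of lung RNA counts. They were chosen as a group with earlier results of these data known, their rows were picked by gene symbol, and all 6 were found. Bulk RNA sequencing was done on 6 lung samples labelled acute lung injury (ALI), a state of inflammation and leakage across the air-blood barrier, and on 6 control samples. Seawater drowning is what the series' design text says induced the injury. Every sample is labelled lung, and strain, age, genotype, dose and the time between injury and collection are not given in the sources used here. The libraries held between 15707937 and 19706494 counts. Nothing in the labels ties each sample to its own animal, and p-values therefore reflect differences among these libraries, possibly technical ones. Levels are in CPM, counts divided by the size of the library after scaling by TMM, a factor that corrects for differences in library make-up. Changes are log2 fold changes of ALI over control with the standard error (SE) of edgeR's quasi-likelihood test, called at an adjusted p under 0.05. Of the 54532 genes 16185 had enough counts to be tested, the 6 described here among them.

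Club cells are the non-ciliated secretory cells of the bronchioles. They release secretoglobins into the fluid that lines the airways, detoxify inhaled chemicals with cytochrome P450 enzymes, and can divide to replace themselves and ciliated cells after injury. Secretoglobins are small secreted proteins that form disulfide-linked dimers around a pocket for lipid-like ligands. SCGB1A1, also called CC10 or uteroglobin, is the most abundant of them in airway fluid and is known to dampen inflammation, and SCGB3A2 and SCGB3A1 are related airway proteins, SCGB3A1 being found mostly in the larger airways of the mouse. CBR2, a mitochondrial carbonyl reductase of mouse lung, and ALDH1A1, which oxidises retinaldehyde to retinoic acid, are enzymes of club cells, and both are also made by other cells of the lung.

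The 6 genes did not move together. Scgb1a1, Scgb1c1, Cbr2 and Aldh1a1 fell in ALI, Scgb3a2 had nearly equal means in ALI and control, and Scgb3a1 had the higher mean in ALI with groups that overlapped. The 4 falls compare with 17.7% of all tested genes called lower (36.6% called in either direction). In the same 4 genes every ALI value lay below every control value, which was the case for 8.25% of tested genes. Scgb1c1 passed the filter on low counts only through the control samples, where it is high, so its place in both counts is no support for them. The 6 genes together took between 0.314% and 0.698% of all counts in ALI libraries, and between 1.19% and 2.49% in control libraries. In bulk RNA, fewer cells of a type and less RNA per cell cannot be told apart.

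**Figure D1:**
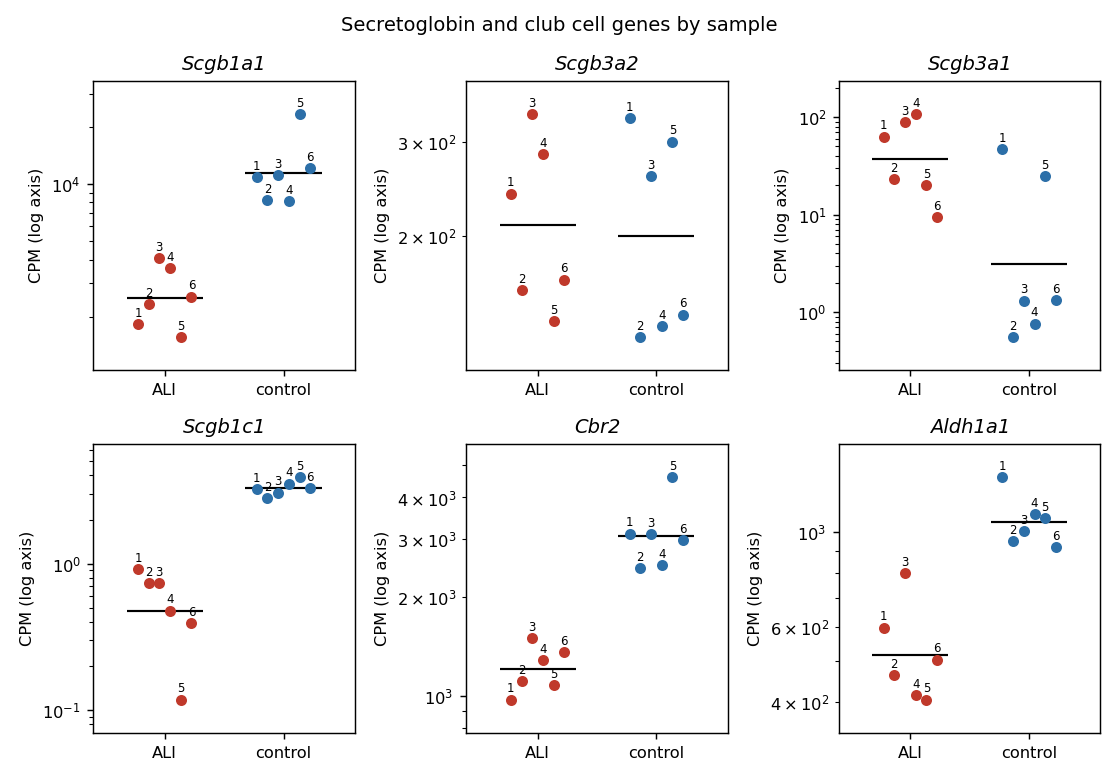
Level of each gene in CPM on a log axis (y) in the 6 ALI and 6 control samples (x); each point is 1 sample, marked with its replicate number, and the line is the geometric mean of the group. The ALI points of Scgb1a1, Scgb1c1, Cbr2 and Aldh1a1 lie below all control points, those of Scgb3a2 share the control range, and Scgb3a1 splits the controls into 2 high and 4 low samples.

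Scgb1a1 (ENSMUSG00000024653, chromosome 19, 9083636 to 9087958 on GRCm38, minus strand, 3 exon blocks) was the most abundant of the 6. It ranged from 1566 to 4054 CPM in ALI, with a median of 2443 CPM, and from 8142 to 23280 CPM in control, with a median of 11048 CPM. The highest ALI sample, ALI 3, stayed below the lowest control sample, control 4, so the groups did not overlap. The mean was 2659 ± 987 CPM in ALI and 12318 ± 5614 CPM in control (SD, n = 6 each). This is a 4.63-fold fall (log2 change -2.21 ± 0.30 SE, 95% interval -2.86 to -1.56, edgeR adjusted p = 5.59e-05). Control 5 held nearly double the Scgb1a1 of the next control, 23280 against 12158 CPM in control 6. The same library contained transcripts of fat, Ucp1 at 2858 CPM and Adipoq at 269 CPM. Without control 5 the log2 change of Scgb1a1 was -1.93, and it was -1.90 without control 5 and ALI 2, the ALI sample with the most Adipoq (59.2 CPM), with the call kept both times.

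Scgb3a2 (ENSMUSG00000038791, chromosome 18, 43764289 to 43767399, plus strand), a secretoglobin that macrophages can take up through the receptor MARCO, ranged from 138 to 339 CPM in ALI with a median of 203 CPM. In control it ranged from 129 to 333 CPM with a median of 200 CPM. The groups covered nearly the same range, and in each of them 3 samples were high and 3 low, with ALI 1, 3 and 4 and controls 1, 3 and 5 the high ones. The mean was 221 ± 80.4 CPM in ALI and 216 ± 92.0 CPM in control (SD, n = 6 each). The log2 change was 0.03 ± 0.30 (adjusted p = 0.950), with a 95% interval from -0.63 to 0.69, or from 0.647 to 1.61 times the control level.

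Scgb3a1 (ENSMUSG00000064057, chromosome 11, 49663610 to 49665118, plus strand), a secretoglobin also known as HIN-1, ranged from 9.48 to 107 CPM in ALI, with a median of 43.2 CPM. In control it ranged from 0.557 to 46.7 CPM, with a median of 1.32 CPM. Controls 1 and 5, at 46.7 and 25.0 CPM, stood within the ALI range, while controls 2, 3, 4 and 6 held at most 1.34 CPM, below every ALI sample. The mean was 51.7 ± 40.2 CPM in ALI and 12.6 ± 19.3 CPM in control (SD, n = 6 each). The log2 change of Scgb3a1 was 2.04 ± 1.11 (95% interval -0.39 to 4.47) and did not pass edgeR's test (adjusted p = 0.177). It passed with limma-voom and sample weights (3.66, adjusted p = 0.0142), and without control 1 it was 3.21 in edgeR (adjusted p = 0.0504). Control 2 had 9 counts, so Scgb3a1 reached the filter on low counts in every ALI sample but not in every control.

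Scgb1c1 (ENSMUSG00000038801, chromosome 7, 140845547 to 140846769, plus strand), a secretoglobin best known from olfactory mucosa, was scarce, with 61 counts over the 6 ALI libraries and 332 over the 6 control libraries. It ranged from 0.118 to 0.924 CPM in ALI (median 0.607 CPM) and from 2.79 to 3.90 CPM in control (median 3.27 CPM). All ALI samples lay below all controls, with ALI 5 the lowest at 2 counts. The mean was 0.565 ± 0.291 CPM in ALI and 3.30 ± 0.382 CPM in control (SD, n = 6 each), a 5.75-fold fall (log2 change -2.52 ± 0.32, adjusted p = 2.75e-05). It had at least 10 counts in every control and in 3 of the 6 ALI samples, so it entered the test through the controls. Of its exon bases 18.7% are shared with C330022C24Rik, a gene with 2 counts in ALI and 10 in control, and the sources used here do not say if counting was by strand. The table lists 69 genes whose symbols start with Scgb, and 5 had any count: the 4 described here and the pseudogene Scgb1b25-ps, with 0 counts in ALI and 2 in control. The other 64, among them many close copies of one another, had 0 counts.

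Both enzymes fell. Cbr2 (ENSMUSG00000025150, chromosome 11, 120729489 to 120732114, minus strand), the carbonyl reductase, ranged from 978 to 1500 CPM in ALI with a median of 1200 CPM, and from 2447 to 4610 CPM in control with a median of 3031 CPM, without overlap. The highest value was again that of control 5. The mean was 1220 ± 196 CPM in ALI and 3121 ± 786 CPM in control (SD, n = 6 each), a 2.56-fold fall (log2 change -1.35 ± 0.16, adjusted p = 1.42e-05). Aldh1a1 (ENSMUSG00000053279, chromosome 19, 20492715 to 20643465, plus strand), the retinaldehyde dehydrogenase, ranged from 405 to 800 CPM in ALI with a median of 482 CPM. In control it ranged from 919 to 1341 CPM with a median of 1038 CPM. ALI 3 came closest to the controls, and control 1 was the highest. The mean was 530 ± 149 CPM in ALI and 1064 ± 152 CPM in control (SD, n = 6 each), a 2.01-fold fall (95% interval of the log2 change -1.36 to -0.65, adjusted p = 0.000230).

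Of the 6 genes 4 matched the RefSeq promoter table (GRCm38.p6), which gives 250 bases before and 50 after an annotated start, and their windows are shown as a description. Scgb1a1 and Scgb3a2 are not among the 4. Scgb1c1, Cbr2 and Aldh1a1 fell, and Scgb3a1 was not called. Capitals mark exact matches on either strand. The motifs searched for NKX2-1 were CACTTGA as well as the shorter CAAGTG. For forkhead factors the letters were TGTTTAC, with the variant TATTTAC searched too. For C/EBP factors they were TTGCNNA, where N is any base. AP-1 was searched as TGANTCA. A sequence of the TATA type, ATAAAA, was added after the windows were seen.
Scgb3a1, chr11:49663345-49663644, plus strand: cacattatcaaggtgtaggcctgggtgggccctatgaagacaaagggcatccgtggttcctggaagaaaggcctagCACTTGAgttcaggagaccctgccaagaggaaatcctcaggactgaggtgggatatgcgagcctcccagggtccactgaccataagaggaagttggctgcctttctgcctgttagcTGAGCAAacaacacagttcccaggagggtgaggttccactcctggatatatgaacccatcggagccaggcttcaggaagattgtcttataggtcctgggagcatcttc
Scgb1c1, chr7:140845315-140845614, plus strand: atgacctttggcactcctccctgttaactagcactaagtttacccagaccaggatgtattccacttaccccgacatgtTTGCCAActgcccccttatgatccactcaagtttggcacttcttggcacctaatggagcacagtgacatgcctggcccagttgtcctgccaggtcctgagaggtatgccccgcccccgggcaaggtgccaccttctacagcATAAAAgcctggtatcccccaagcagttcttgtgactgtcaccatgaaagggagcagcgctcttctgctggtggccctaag
Cbr2, chr11:120731972-120732271, minus strand: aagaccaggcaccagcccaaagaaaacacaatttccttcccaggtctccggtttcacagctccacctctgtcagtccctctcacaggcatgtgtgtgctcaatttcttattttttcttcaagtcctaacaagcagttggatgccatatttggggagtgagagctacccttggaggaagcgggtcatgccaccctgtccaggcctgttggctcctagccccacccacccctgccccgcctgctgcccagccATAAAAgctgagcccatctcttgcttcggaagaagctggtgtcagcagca
Aldh1a1, chr19:20601718-20602017, plus strand: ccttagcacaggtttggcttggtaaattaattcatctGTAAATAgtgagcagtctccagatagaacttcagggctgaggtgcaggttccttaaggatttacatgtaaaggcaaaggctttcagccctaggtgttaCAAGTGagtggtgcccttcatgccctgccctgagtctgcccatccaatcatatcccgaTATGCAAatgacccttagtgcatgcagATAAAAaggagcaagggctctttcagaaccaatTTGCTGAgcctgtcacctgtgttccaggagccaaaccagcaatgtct
The capitals in Scgb3a1 are the longer NKX2-1 motif, whose letters contain the shorter one on the other strand, 174 bases before the start, and the C/EBP motif on the other strand. Scgb1c1 held the C/EBP and the TATA-type motif. Cbr2 held the TATA-type motif alone, at the annotated start itself. The downstream of the 2 Aldh1a1 windows, shown here, held the shorter NKX2-1 motif, the variant forkhead motif, the C/EBP motif in 2 places and the TATA-type motif, and the upstream one, not shown, held the AP-1 and C/EBP motifs. Among 25038 windows of genes in the table, 2.88% held the longer NKX2-1 motif and 13.2% the shorter one. The forkhead motif was in 3.31% of them and its variant in 2.81%. The C/EBP motif was in 36.4%, the AP-1 motif in 7.30% and the TATA-type motif in 16.4%. A match is a description of letters and not a binding site.

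Per length of transcript the means had the same order in both groups: Scgb1a1, Cbr2, Scgb3a2, Aldh1a1, Scgb3a1 and Scgb1c1. By medians the last pair was turned round in control, where Scgb3a1 had 2.21 and Scgb1c1 7.18 CPM per kilobase, since controls 1 and 5 carry the mean of Scgb3a1. The level per kilobase was 5585 ± 2073 CPM in ALI and 25878 ± 11795 CPM in control for Scgb1a1, and 919 ± 147 CPM in ALI and 2352 ± 592 CPM in control for Cbr2 (SD, n = 6 each). Scgb3a2 had 251 ± 91.4 CPM per kilobase in ALI and 246 ± 105 CPM in control. Aldh1a1 had 107 ± 30.2 CPM per kilobase in ALI and 216 ± 30.8 CPM in control. Scgb3a2 and Aldh1a1 overlapped within ALI, where the lowest Scgb3a2 value was 157 and the highest Aldh1a1 value 162 CPM per kilobase, and within control (146 to 378 and 186 to 272 CPM per kilobase). In ALI, Aldh1a1 and Scgb3a1 also overlapped (82.1 to 162 and 15.9 to 178 CPM per kilobase), while in control every Scgb3a1 value, at most 78.2, was below every Aldh1a1 value. Scgb3a1 and Scgb1c1 did not overlap in ALI (15.9 to 178 and 0.260 to 2.03 CPM per kilobase), and did in control (0.932 to 78.2 and 6.13 to 8.57).

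Replicates differed more in Scgb3a1, Scgb1a1 and Scgb3a2 than in most genes of like level. The SD of log2 CPM of Scgb3a1 was 1.38 in ALI and 2.65 in control, above the other genes of its level bin (323 genes of like mean level) in both groups, where the median SD was 0.23 in ALI and 0.29 in control. For Scgb1a1 it was 0.54 in ALI and 0.55 in control, against medians of 0.15 and 0.25, and for Scgb3a2 0.52 in ALI and 0.63 in control, against medians of 0.13 and 0.20. Scgb1c1 differed between the groups in this: its SD was 0.78 in ALI and 0.16 in control, on 61 and 332 counts in all. Cbr2 (0.23 in ALI, 0.33 in control) and Aldh1a1 (0.37 in ALI, 0.20 in control) varied less than Scgb1a1 in both groups. The medians of genes of their like level were 0.15 in ALI and 0.25 in control. Cbr2 was above them in both groups, and Aldh1a1 was above in ALI, at percentile 95.7, and below in control.

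**Figure D2:**
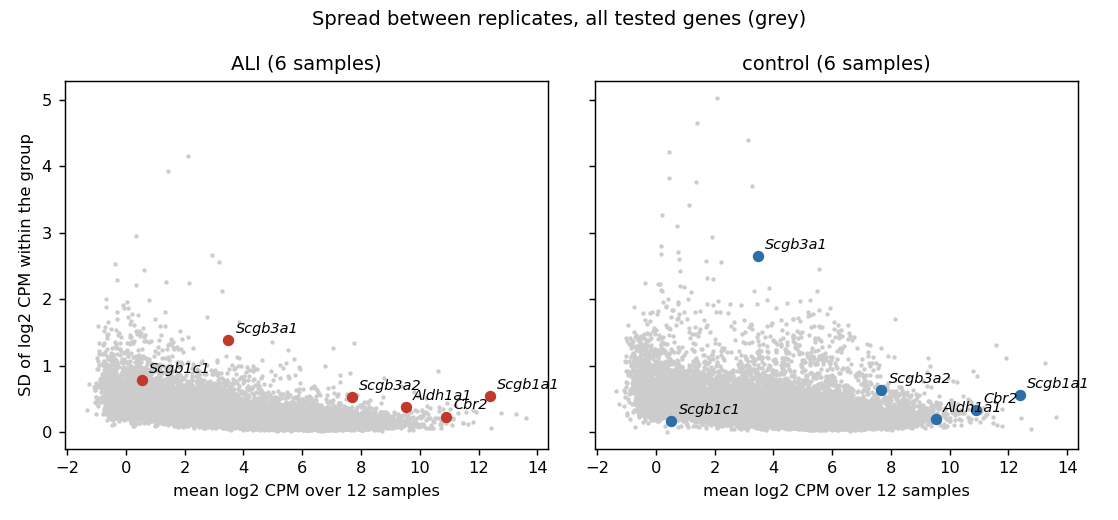
SD of log2 CPM within ALI (left) and within control (right) on the y axis against the mean log2 CPM over 12 samples (x); grey points are all tested genes and coloured points the 6 genes. Scgb3a1 stands out in both panels, with an SD of 1.38 in ALI and 2.65 in control, and Scgb1c1 is near the bottom in control (0.16).

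Ciliated cells line the same airways as club cells, and 16 of their genes were set beside the 6 genes. Whether they measure the amount of airway in a sample was not tested. Of these 16 genes 1 fell in ALI (17.7% of all tested genes did) and 0 rose (18.9% of all) by edgeR's test. The 1 that fell was Tppp3 (log2 change -1.06 ± 0.14), a tubulin-binding protein gene. The median log2 change of the list was -0.14, against -0.06 over all tested genes. Foxj1, the master regulator of motile cilia, was at 53.7 ± 20.3 CPM in ALI and 47.0 ± 16.4 CPM in control (SD, n = 6 each), and did not pass the test (0.19 ± 0.27, adjusted p = 0.616). Without ALI 3, and also with limma-voom, 3 of the 16 were called lower. The summed level of the list ran from 333 to 648 CPM in ALI and from 507 to 764 CPM in control.

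Log2 ratios within a sample set each gene against these airway genes and against general epithelial genes. The log2 ratio of Scgb1a1 to the mean of the ciliated list was 7.37 ± 0.63 in ALI and 9.38 ± 0.39 in control (SD, n = 6 each), lower by 2.01 in ALI with no overlap. This gave the smallest p that 6 against 6 allows in a two-sided exact permutation test (p = 0.00216, adjusted p = 0.00433 over 20 ratios). Against the mean of 10 general epithelial genes Scgb1a1 was lower by 2.25 (adjusted p = 0.00433 in the same exact test). Cbr2 was lower by 1.15 against the ciliated list and by 1.39 against the epithelial list, and Aldh1a1 by 0.85 and 1.09. Each of these had an exact adjusted p of 0.00433 except Aldh1a1 against the ciliated list (0.00999). Scgb1c1 was lower by 2.28 and 2.52 (exact adjusted p = 0.00433 for both). It passed the filter on low counts only through the control samples, where it is high, so its ratios are no added support. Scgb3a2 differed little on either scale: its log2 ratio to the ciliated list was 3.78 ± 0.31 in ALI and 3.53 ± 0.40 in control (exact adjusted p = 0.257), and to the epithelial list 1.37 ± 0.50 in ALI and 1.36 ± 0.52 in control (exact adjusted p = 0.965).

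The difference between the secretoglobins was tested directly. The ratio of Scgb1a1 to Scgb3a2 ranged from 7.61 to 15.4 in ALI, with a median of 12.3, and from 32.8 to 85.5 in control, with a median of 62.0. No ALI sample reached the lowest control, control 1. On the log2 scale the ratio was 3.58 ± 0.36 in ALI and 5.84 ± 0.52 in control (SD, n = 6 each), a difference of -2.26 (exact permutation p = 0.00216, adjusted p = 0.00433). The log2 ratio of Scgb3a1 to Scgb1a1 was -6.07 ± 1.19 in ALI and -11.74 ± 2.33 in control, a difference of 5.67 (exact permutation adjusted p = 0.00722), and here the ALI range overlapped that of the controls. Scgb3a1 was also higher in ALI relative to the ciliated list, with a log2 ratio of 1.29 ± 1.01 in ALI and -2.36 ± 2.31 in control (exact permutation adjusted p = 0.0186). The groups overlapped, with a lowest ALI ratio of -0.21 and a highest control ratio of 1.03. The level of Scgb3a1 did not pass edgeR's test. Scgb3a1 reached the filter on low counts in every ALI sample but not in every control. It entered the test through ALI, where it is high, so its ratios are no added support.

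**Figure D3:**
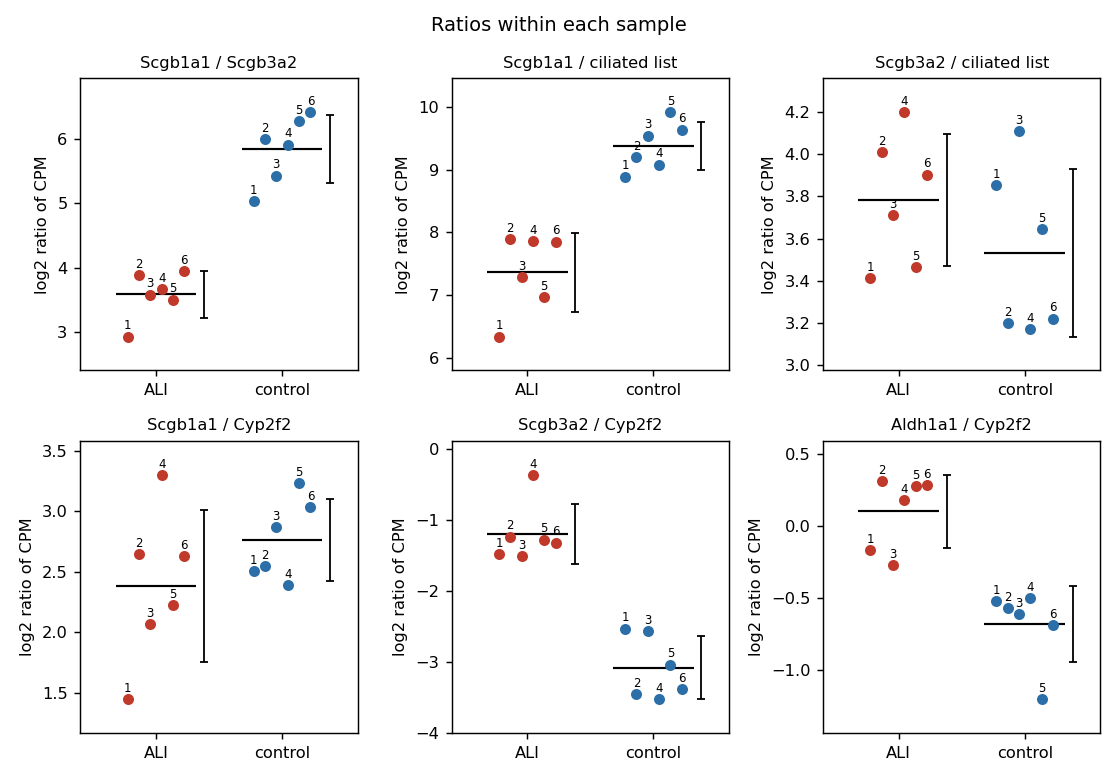
Log2 ratio of CPM within each sample (y) for 6 pairs, in the 6 ALI and 6 control samples (x); points are samples with their replicate number, lines are means and bars 1 SD. The ratios of Scgb1a1 to Scgb3a2 and to the ciliated list are lower in every ALI sample than in any control, while Scgb3a2 relative to the ciliated list overlaps (3.78 ± 0.31 in ALI, 3.53 ± 0.40 in control).

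Other genes of club cells fell along with Scgb1a1. Of 19 further club cell genes 13 fell (17.7% of all tested genes did), 1 rose and 5 did not pass the test, with a median log2 change of -1.27 against -0.06 over all tested genes. In 10 of the 19 every ALI value lay below every control value, against 8.25% of all tested genes. Cyp2f2, the main cytochrome P450 of mouse club cells, was at 335 to 965 CPM in ALI (median 393 CPM) and at 1410 to 2474 CPM in control (median 1543 CPM), a 3.32-fold fall (log2 change -1.73 ± 0.27, adjusted p = 0.000168). Cyp2a5 fell by 3.21 on the log2 scale, Gsta3, a glutathione transferase, by 1.95, and Cyp4b1 fell 3.03-fold. Cyp2a5, Cyp2b10 and Gsta3 have close paralogs with which reads can be shared, so their levels are uncertain. Pon1, a lactonase, fell by 1.87, Slc16a11, a transporter of the monocarboxylate family, by 1.27, Cldn10, a claudin of club cells, by 1.27, Iyd, an iodotyrosine deiodinase, by 1.17, and Upk3a, which marks a group of club cells near neuroendocrine bodies, by 1.51. Aox3, an aldehyde oxidase, fell by 0.95, Cyp2b10, a cytochrome P450, by 1.01 and Cckar, the cholecystokinin A receptor, by 0.73. The gene that rose was Chad, a matrix protein gene also typical of cartilage (log2 change 0.82 ± 0.30, adjusted p = 0.0471), a call that was lost in 8 of the 12 fits that left out 1 sample (all but those without ALI 2, 5 or 6 or control 1). The call of Iyd was lost in 7 of these 12 fits. Gabrp (log2 change -0.31), Lypd2 (-0.54), Gsto1 (-0.20), Hp (0.13) and Sult1d1 (-1.50) did not pass the test. Hp was called without control 5 (0.34), and Sult1d1 was called without ALI 3 (-2.32) and was at -0.39 without control 1.

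**Figure D4:**
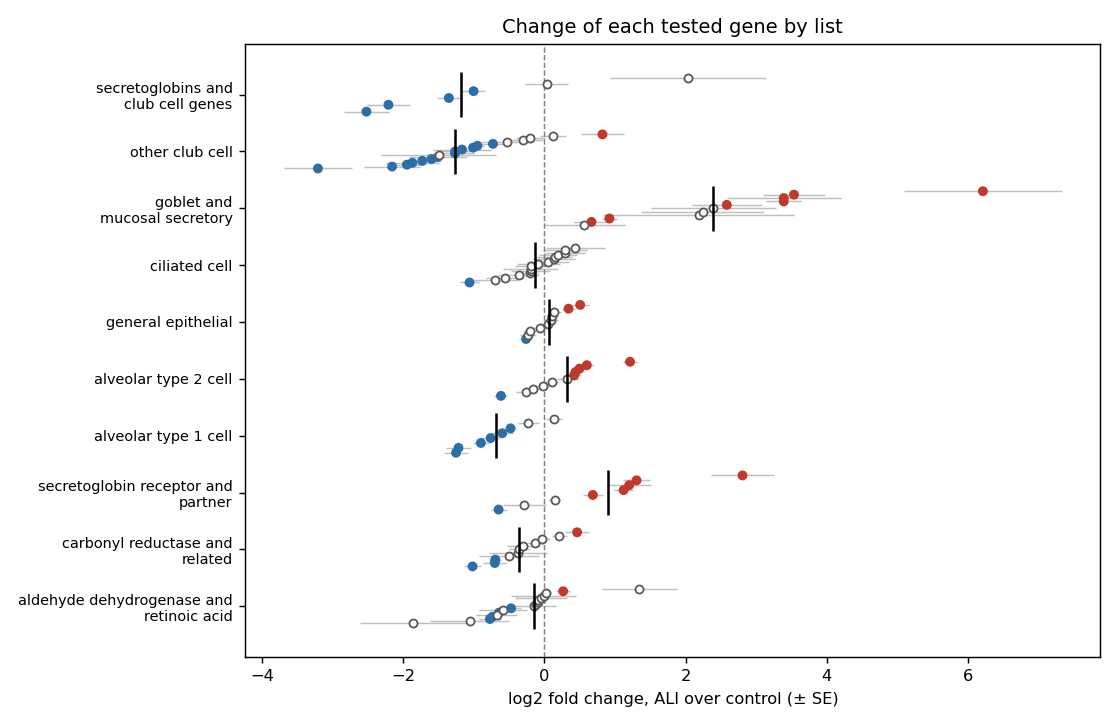
Log2 fold change of ALI over control (x, with 1 SE) of each tested gene, by list (y); filled points passed edgeR's test at an adjusted p under 0.05, red higher and blue lower in ALI, open points did not, and the black bar is the list's median. The other club cell list lies mostly left of 0 (median -1.27), the goblet and mucosal list right of it (median 2.40), and the ciliated list around it (median -0.14).

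Set against Cyp2f2 within a sample, the 6 genes behaved differently. The log2 ratio of Scgb1a1 to Cyp2f2 was 2.39 ± 0.63 in ALI and 2.76 ± 0.34 in control (SD, n = 6 each), a difference of -0.38 that did not pass (exact permutation adjusted p = 0.253). Cbr2 was at 1.33 ± 0.58 in ALI and 0.85 ± 0.15 in control (exact permutation adjusted p = 0.0815). The ratio of Aldh1a1 to Cyp2f2 was higher in every ALI sample, at 0.10 ± 0.25 in ALI and -0.68 ± 0.26 in control (exact permutation adjusted p = 0.00433), so Aldh1a1 fell by less than Cyp2f2. Scgb3a2 relative to Cyp2f2 was higher in ALI by 1.88, also without overlap (exact permutation adjusted p = 0.00433). Scgb3a1 relative to Cyp2f2 was at -3.69 ± 1.19 in ALI and -8.98 ± 2.38 in control, with overlap (exact permutation adjusted p = 0.00722). Scgb3a1 entered the test through ALI, where it is high, so this ratio is no added support. Scgb1c1 relative to Cyp2f2 was at -9.61 ± 0.62 in ALI and -8.96 ± 0.21 in control (exact permutation adjusted p = 0.0352), a call that was lost in the 8 of 12 fits that left out ALI 3, 5 or 6 or control 1, 2, 3, 4 or 6 (exact adjusted p up to 0.0920). Since Scgb1c1 passed the filter on low counts only through the controls, this ratio is no added support either.

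Goblet and mucosal secretory genes moved the other way. Of 15 such genes 11 were tested, 7 rose and none fell, with a median log2 change of 2.40 (18.9% of all tested genes were called higher). Gp2, Tff2 and Muc5ac reached the filter on low counts in every ALI sample but not in every control. They entered the test through ALI, where they are high, so their place among the 7 is no support for that count. Pigr, which carries IgA across the epithelium, was up 10.5-fold and Ltf, which encodes the iron-binding lactoferrin, 11.6-fold. Of 8 leukocyte markers 6 also rose and 1 fell, and the part of leukocytes in the rise of Ltf was not tested. Muc5ac, a mucin of goblet cells, ranged from 2.77 to 11.6 CPM in ALI (median 6.88 CPM) and from 0.328 to 2.81 CPM in control (median 1.01 CPM), a rise of 2.59 ± 0.50 on the log2 scale (adjusted p = 0.00101) although the lowest ALI sample was just below the highest control. Tff2, a trefoil peptide, rose by 3.39 on the log2 scale, Creb3l1 by 0.92 and Spdef, a regulator of goblet cells, by 0.67 (adjusted p = 0.0499). Gp2, a membrane glycoprotein gene, rose on 744 counts in ALI and 9 in control, all 9 in control 1. Its log2 change was 6.22, and 9.92 without control 1, where every control left is at 0 and the fitted size is no bound. Muc5ac and Tff2 were chosen after their values were seen, as was Bpifb1, a secreted protein of the airways (log2 change 2.40 ± 0.89, adjusted p = 0.0537). Muc5b, the other main airway mucin, ranged from 12.9 to 91.6 CPM in ALI (median 46.1 CPM) and from 1.90 to 44.1 CPM in control (median 3.68 CPM), and did not pass the test (2.24 ± 0.87, adjusted p = 0.0644), although it was called without control 1 (log2 change of Muc5b 3.92). The call of Spdef was lost in most fits that left out 1 sample. Bpifa1, a secreted protein of large airways, was not tested; it ranged from 0 to 1.21 CPM in ALI and from 0 to 37.9 CPM in control, with 9.68 CPM in control 1, 37.9 CPM in control 5 and at most 0.820 CPM in the other controls.

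Sample by sample, Scgb3a1 varied with these genes, and so did Scgb3a2. Deviations from the group mean over 12 samples gave an r of 0.89 between Scgb3a1 and the goblet and mucosal list, 0.76 with the ciliated list and 0.75 with the other club cell list, as a description. In the same order the values were 0.82, 0.79 and 0.83 for Scgb3a2 and 0.44, 0.75 and 0.90 for Aldh1a1. They were 0.34, 0.48 and 0.54 for Scgb1a1, 0.23, 0.42 and 0.47 for Cbr2, and 0.30, 0.45 and 0.65 for Scgb1c1. ALI 1, 3 and 4, the ALI samples with the most Scgb3a1, also held the most Muc5b, Bpifb1 and Scgb3a2 of their group. Control 1 had the highest Muc5b (44.1 CPM) and Scgb3a1 of the controls, and control 5 the highest Bpifa1. The part that the amount of large airway plays in these values was not tested.

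**Figure D5:**
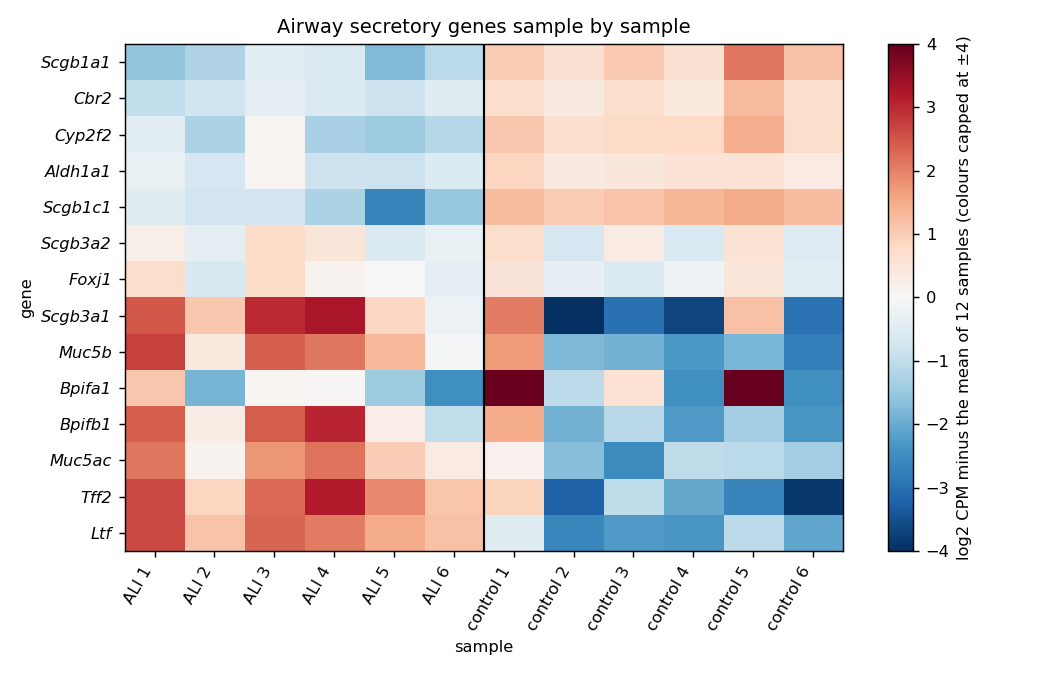
Log2 CPM minus the mean of 12 samples (colour) for 14 airway genes (rows) in each ALI and control sample (columns). Scgb1a1, Cbr2, Cyp2f2, Aldh1a1 and Scgb1c1 are lower in ALI throughout, while Scgb3a1 is high in ALI 1, 3 and 4 and in controls 1 and 5, the samples in which Bpifa1 or Muc5b are also high in their group.

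Genes whose sample to sample pattern was closest to a secretoglobin were looked for with group means removed, so that the difference between ALI and control played no part. For Scgb1a1 the closest (among 15246 genes whose mean reached 1 CPM) were Fra10ac1 (r = 0.94), Gas5 (0.93), Cbr2 (0.92), Gt(ROSA)26Sor (0.92) and Rassf6 (0.91), over 12 samples. For Scgb3a2 they were 4833427G06Rik (0.96), Lypd2 (0.92), Dnaaf1 (0.90), Vpreb3 (0.90) and Tmem212 (0.90), where Dnaaf1 and Tmem212 are genes of ciliated cells. For Scgb3a1, added after its values were seen, they were Ltf (0.94), Ccdc151 (0.92), Cxcl17 (0.92), Oscp1 (0.92) and Ccdc65 (0.90). These values are descriptions, and by rank correlation only 1 of the 5 genes closest to Scgb1a1 and 0 of the 5 closest to Scgb3a2 were again among the closest 5.

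Between the 6 genes, 15 pairs were compared within each group, 30 relations in all, and none passed after adjustment (4 had an exact permutation p under 0.05 for r before it). Scgb1a1 and Cbr2 had r = 0.85 and rho = 0.89 in ALI (exact permutation p = 0.0417 and p = 0.0333, adjusted p = 0.317 for r), with r = 0.77 without the 2 samples farthest from the median. In control they had r = 0.99 and rho = 0.71 (exact permutation p = 0.0167 and p = 0.136, adjusted p = 0.250 for r), with r = 0.90 without the 2 farthest samples. Scgb3a1 and Scgb3a2 had r = 0.88 and rho = 0.77 in ALI (exact permutation p = 0.0486 and p = 0.103, adjusted p = 0.317 for r), with r = 0.99 without the 2 farthest samples. In control they had r = 0.86 and rho = 0.94 (exact permutation p = 0.00278 and p = 0.0167, adjusted p = 0.0833 for r), with r = 0.63 without the 2 farthest samples.

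Transcription factors of airway cells, some of them known to act on secretoglobin genes, were called in both directions. Of 12 such genes 3 rose (18.9% of all tested genes did), 3 fell (17.7% of all) and 6 did not pass, where 36.6% of all tested genes were called. In all 12 the groups overlapped. Among all tested genes, every ALI value lay below every control value in 8.25% and above in 13.1%. With 1 sample left out, between 1 (without ALI 4) and 4 (without control 5) were called higher and between 1 (without control 2) and 4 (without control 5) lower. Nkx2-1, which drives lung epithelial genes including secretoglobins, was at 208 ± 17.3 CPM in ALI and 242 ± 19.6 CPM in control (SD, n = 6 each), a fall of 0.22 on the log2 scale whose adjusted p of 0.0487 was just under the threshold and rose above it in 13 of 22 alternatives. Foxa1, a forkhead factor, fell by 0.42. Cebpb, an inflammation-induced member of the C/EBP family, rose by 0.73, a call lost in 8 of the 12 fits that left out 1 sample, and Elf3, an epithelial factor, by 0.51, and Cebpa (log2 change 0.17) and Foxa2 (-0.22) did not pass the test. Without control 5 Cebpa was called, at 0.48, and Foxa2 was called in 4 of the 12 fits that left out 1 sample.

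Genes whose products bind secretoglobins or are held back by them included several that rose. Of 10 such genes 8 were tested, 5 rose (18.9% of all tested genes did) and 1 fell (17.7% of all), with a median log2 change of 0.90 against -0.06 over all tested genes. Marco, the scavenger receptor of macrophages that binds SCGB3A2, was at 2.61 to 10.1 CPM in ALI (median 3.83 CPM) and at 0.223 to 1.24 CPM in control (median 0.651 CPM), without overlap (log2 change 2.81 ± 0.44, adjusted p = 0.000180). It reached the filter on low counts in every ALI sample but not in every control. Its place among the 5 is therefore no support for that count. Marco is itself a macrophage gene, and of 8 leukocyte markers 6 rose, 1 fell and 1 did not pass, with summed levels of 10086 to 16758 CPM in ALI and 4369 to 4718 CPM in control. Their part in the rise of Marco was not tested. Pla2g4a, a cytosolic phospholipase A2 of the enzyme class that SCGB1A1 is known to inhibit, ranged from 29.8 to 35.5 CPM in ALI and from 10.7 to 19.4 CPM in control, a 2.18-fold rise. Fn1, fibronectin, which binds SCGB1A1, rose by 1.31, Lrp2, an endocytic receptor that takes up SCGB1A1 in the kidney, by 0.69, and Pla2g2d, a secreted phospholipase A2, rose 2.30-fold. Lmbr1l, a lipocalin receptor known in human cells to bind SCGB1A1 too, fell by 0.65, and Sdc1 (0.15) and Cubn (-0.28) did not pass the test.

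Relatives of the 2 enzymes were called about as often as tested genes in all, of which 36.6% were called. Of 11 genes of carbonyl reductases and related enzymes 3 fell, 1 rose and 7 did not pass, with a median log2 change of -0.36. Cbr1, the cytosolic carbonyl reductase, fell by 0.70, Hsd11b1, which regenerates corticosterone, by 1.02 and Akr1c14 by 0.70, and Akr1b8, an aldo-keto reductase, rose by 0.46, a call lost in 10 of the 12 fits that left out 1 sample. Cbr3, a related reductase, ranged from 12.8 to 18.4 CPM in ALI and from 13.7 to 20.1 CPM in control (log2 change -0.03 ± 0.12, adjusted p = 0.852). Without control 5, 3 of the 11 genes were called higher. Of 20 genes of aldehyde dehydrogenases and retinoic acid 17 were tested, 4 fell, 1 rose and 12 did not pass, with a median of -0.15. Aldh2, which clears acetaldehyde, fell by 0.74 and Aldh1a7, a close paralog of Aldh1a1 with which reads can be shared, by 0.77. Rarg, a retinoic acid receptor, fell by 0.64, and Dhrs3, which reduces retinaldehyde and was named after its value was seen, rose by 0.27 (adjusted p = 0.0443). With 1 sample left out, between 0 (without ALI 2, for example) and 2 (without control 5) of the 17 were called higher.

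Markers of other cells are read against the 18.9% of all tested genes called higher and the 17.7% called lower. Of 10 general epithelial genes 2 rose (Krt8 and Elf3), 1 fell (Krt19, by 0.26) and 7 did not pass, with a median log2 change of 0.07. The call of Krt19 was lost without ALI 3, without ALI 5 and without control 3. Epcam was at 71.0 ± 3.63 CPM in ALI and 74.5 ± 7.91 CPM in control (SD, n = 6 each). Of 11 alveolar type 2 genes 5 rose and 1 fell (median 0.33), and Sftpc, their surfactant marker, did not pass (-0.26 ± 0.14, adjusted p = 0.151). Of 8 alveolar type 1 genes 6 fell and none rose (median -0.68). Krt5, a defining gene of basal cells, had 0 counts in all 12 libraries, and of 8 basal genes 3 were tested, of which Aqp3 and Trp63 rose. Both reached the filter on low counts in every ALI sample but not in every control, so their rises are no support for a rise of the list. Of 6 neuroendocrine genes 3 were tested and Syp fell (2 of them without control 4), and of 7 oesophageal and squamous genes 2 were tested and neither passed. Of 8 adipose genes 5 were tested and 2 called lower (Cidea and Cox8b), and both calls were lost without control 5. The summed level of the 5 ran from 4.61 to 691 CPM in ALI and from 3.52 to 8205 CPM in control.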

How the data were processed

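Lung RNA of 12 mouse samples (TRIzol extraction, NEBNext Ultra libraries, NovaSeq) was sequenced, per the labels' protocols. The values used are raw gene counts, deposited by the authors in 1 table. Tools named in the submitters' processing notes are fastp, HISAT2 and featureCounts, with build GRCm38 (mm10). Versions, strand setting and handling of reads that match several genes are not stated there. Columns were matched to samples by the codes in the titles, and 0 columns belonged to other samples. Coordinates are from GENCODE M21 by gene ID, since deposited positions were not those of GRCm38. No 2 samples of a group agreed within sampling noise (chi-square over degrees of freedom, 6.91 at the lowest and 239 at the highest of 30 pairs).

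With edgeR 4.0.16 in R 4.3.3, genes were filtered by filterByExpr (minimum count 10), scaled by TMM and compared by the robust quasi-likelihood test, adjusted by Benjamini-Hochberg over 16185 genes. Log2 CPM used a prior count of 2. List scores average log2 CPM over the tested genes. Alternatives used DESeq2 1.42.0, limma 3.58.1, other scaling and filters, and samples left out. Steps were tested on simulated counts. Deviations of same-numbered samples in ALI and control correlated between -0.27 and 0.27. Only the samples numbered 1 (0.27) were each other's best match, so the numbers were not taken to pair the samples. Whether same-numbered samples were handled together was not tested. Counts carry no molecular identifiers.

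Members and lists were chosen with earlier results of these data known. Named genes are the members, Scgb genes with any count, the lists of other club cell genes, transcription factors and partners, up to 4 called genes of each other list by p, some genes given whatever their result (Foxj1, Sftpc, Epcam, Aldh1a7, Cbr1, Cbr3, Muc5b, Bpifa1, Ucp1, Adipoq), and the 5 genes closest to Scgb1a1 and to Scgb3a2. Exceptions are stated where they occur. Some genes the rule takes are left out here.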

Additional observations from a re-analysis of the deposited data

Results flagged for a closer look

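In 66 groups of 6 values (the 6 genes and Cyp2f2, their ratios and 6 list scores), 4 had a sample far from the other 5, where chance alone flags about 1 in 20 groups. Scgb1a1 in control 5 was 23280 CPM, against 12158 CPM in the next control, and Cbr2 in control 5 was 4610 CPM, against 3111 CPM. The log2 ratio of Aldh1a1 to Cyp2f2 was -1.20 in control 5, against -0.69 in the next lowest control. The log2 ratio of Scgb3a2 to Cyp2f2 was -0.36 in ALI 4, against -1.24 in the next highest ALI sample. Of these 4 values 3 belong to control 5, the library with adipose transcripts.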

How the results depend on the processing

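The falls of Scgb1a1, Scgb1c1, Cbr2 and Aldh1a1 kept their direction and their calls in all 22 alternatives. With 1 sample left out, their log2 changes ran from -2.37 to -1.93, from -2.71 to -2.32, from -1.42 to -1.21 and from -1.16 to -0.93. The log2 change of Scgb3a1 was called only by limma-voom (3.66), and ran from 1.69 to 3.21 with 1 sample left out. That of Scgb3a2 ran from -0.13 to 0.19, changing sign. With limma-voom, 3 ciliated genes were called lower (1 to 3 with 1 sample left out). The other club cell list had 0 called higher with upper-quartile factors or no filter (0 to 1 with 1 sample left out). The general epithelial list had 0 called lower with library size alone, no filter or the replicate block (0 to 1 with 1 sample left out). Replicate numbers were not taken to pair the samples, and the replicate block (2639 called higher, 2183 lower) changed no call among the 6 genes. Ratios that crossed the threshold or 0 with 1 sample left out were Scgb3a1 to epithelial genes (2.96 to 4.16), Scgb3a2 to epithelial genes (-0.12 to 0.14), Scgb1c1 to Cyp2f2 (-0.82 to -0.48) and Cbr2 to Cyp2f2 (0.39 to 0.64).

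Signs turned for genes near 0 or led by 1 library. The log2 change of Gsto1 was 0.020 with limma-voom and 0.10 without control 5 and ALI 2 (-0.26 to 0.062 with 1 sample left out). The log2 change of Cbr3 was 0.0026 with library size alone, 0.0081 with limma-voom and 0.024 without both samples (-0.087 to 0.038). The log2 change of Grhl2 ran from -0.015 to 0.084. The log2 change of Cidea was 0.37 with limma-voom and 0.027 without both samples (-7.60 to 0.87). The cause was not tested.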
